A study of Rattus norvegicus with 9 samples.

Results

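The genes described here are 8 genes of the podocyte, the epithelial cell that covers the outer face of the glomerular capillaries: Nphs1, Podxl, Synpo, Wt1, Ptpro, Plce1, Cd2ap and Magi2. They were chosen by name, with no measured value in the rule, and each symbol was found in 1 of the 36267 features of the deposited kidney gene table. The kidneys came from 9 rats weighing 180 to 200 g, whose strain, age and sex are not stated in the labels, in 3 groups of 3 separate rats. Control rats had no treatment. Rats with contrast-induced acute kidney injury (CIAKI) received furosemide, a loop diuretic, into the stomach at 200 mg/kg, went without water for 6 h, and were then injected through the tail vein with iopromide, an iodinated X-ray contrast agent of 370 mg I/mL, at 15 mL/kg. Rats of the icariin group had the same furosemide, water deprivation and iopromide after icariin, a plant flavonoid glycoside, by stomach at 100 mg/kg daily for 3 days. No group had icariin alone or furosemide and water deprivation without iopromide, so the parts of the model cannot be told apart.

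Podocytes wrap the capillaries with interdigitating foot processes, and neighbouring processes are bridged by the slit diaphragm, the last layer of the filtration barrier. Nephrin, the product of Nphs1, spans the slit, binds the Neph proteins (Kirrel genes), and is tied to the actin skeleton by adaptors such as Cd2ap. Of the 8 genes, Nphs1, Cd2ap and Magi2 encode proteins of the slit diaphragm complex. The rest belong to other parts of the same cell: Podxl and Ptpro to the apical membrane, Synpo to the actin of the foot processes, Plce1 to signalling and Wt1 to the nucleus. Several are not restricted to podocytes: Podxl is also made by endothelium, Wt1 by parietal and mesothelial cells, and Cd2ap by many epithelia including the tubule. RNA came from kidney tissue in which podocytes are a small minority, so fewer podocytes and less RNA per podocyte cannot be told apart.

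Levels are in CPM, reads scaled to a common library total, where 1 CPM was worth 64.4 to 90.4 reads. Of the features, 16731 had at least 1 CPM in at least 3 libraries and were tested, all 8 genes among them. Fold changes are differences of log2(CPM + 1), so that changes of weakly expressed genes are understated. Adjusted p-values are from limma across all tested features with Benjamini-Hochberg adjustment, and a gene was called at an adjusted p below 0.05. Icariin replicate 3 was the most deeply sequenced library, at 90.4 reads per CPM, and had the lowest scaling factors (0.954 by TMM and 0.948 by upper quartile).

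RefSeq's promoter table for the rat assembly GRCr8 held 7 of the 8 genes, all but Plce1. The 250 bases before an annotated start site are shown for nephrin, for podocalyxin and for Cd2ap, the gene that moved against the others. For Cd2ap these bases lie inside the annotated gene (chr9:25580071-25679968), so the start site is an internal one. The bases searched for Wt1, Ptpro and Magi2 also lie inside their annotated genes. Capitals mark matches, on either strand, to GNGNGGGNG, the letters of a WT1 zinc finger site, in which neighbouring matches may overlap.
Nphs1 (GRCr8, chr1:94848011-94848260, plus strand): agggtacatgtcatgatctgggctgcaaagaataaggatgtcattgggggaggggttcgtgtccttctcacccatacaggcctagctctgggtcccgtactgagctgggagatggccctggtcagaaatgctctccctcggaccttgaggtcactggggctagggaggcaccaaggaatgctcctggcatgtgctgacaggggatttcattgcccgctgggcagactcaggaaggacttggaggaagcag
Podxl (GRCr8, chr4:61149132-61149381, minus strand): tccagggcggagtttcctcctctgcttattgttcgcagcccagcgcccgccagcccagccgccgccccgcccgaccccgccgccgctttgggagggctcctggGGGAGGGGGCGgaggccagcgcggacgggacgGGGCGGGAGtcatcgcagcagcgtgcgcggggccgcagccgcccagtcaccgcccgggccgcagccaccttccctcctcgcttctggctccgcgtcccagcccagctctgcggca
Cd2ap (GRCr8, chr9:25583725-25583974, plus strand): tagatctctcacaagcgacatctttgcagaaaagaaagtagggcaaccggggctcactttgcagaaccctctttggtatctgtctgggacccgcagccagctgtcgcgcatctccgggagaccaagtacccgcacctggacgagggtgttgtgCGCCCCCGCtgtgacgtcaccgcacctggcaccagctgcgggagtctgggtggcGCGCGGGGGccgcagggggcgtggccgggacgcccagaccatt

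The motif had 0 matches before Nphs1, 3 before Podxl (1 pair overlapping) and 2 before Cd2ap. Among the other promoters it matched 3 times before Magi2, once before Ptpro and not at all before Synpo or Wt1. It thus occurred in 4 of 7 promoters, against 33.0% of 33469 RefSeq promoters. The promoters are GC-rich, at 57.2% for Nphs1, 76.4% for Podxl and 64.4% for Cd2ap, against a median of 51.2%. Podxl and Cd2ap, which changed in opposite directions, both held the motif. WT1 binding was not measured, and the part of the motif in any change was not tested. TAATTA, the core of an LMX1B site (4.86% of all promoters), and TGTTTAC, a forkhead site (3.21%), occurred before none of the 7.

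The first question was how these genes stood in kidneys injured by the contrast protocol. Compared with control, 7 of the 8 were lower in CIAKI, at 51.7% to 67.4% of the control mean, and Cd2ap was higher, at 174.8%. All 8 passed the test, 7 lower and 1 higher, and in none did the CIAKI libraries overlap the control libraries. The same test called 20.5% of all features lower and 20.8% higher, and 26.5% of features were lower and 26.9% higher without overlap. The median log2 fold change of the 8 genes was -0.69, against -0.003 over all features.

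**Figure D1:**
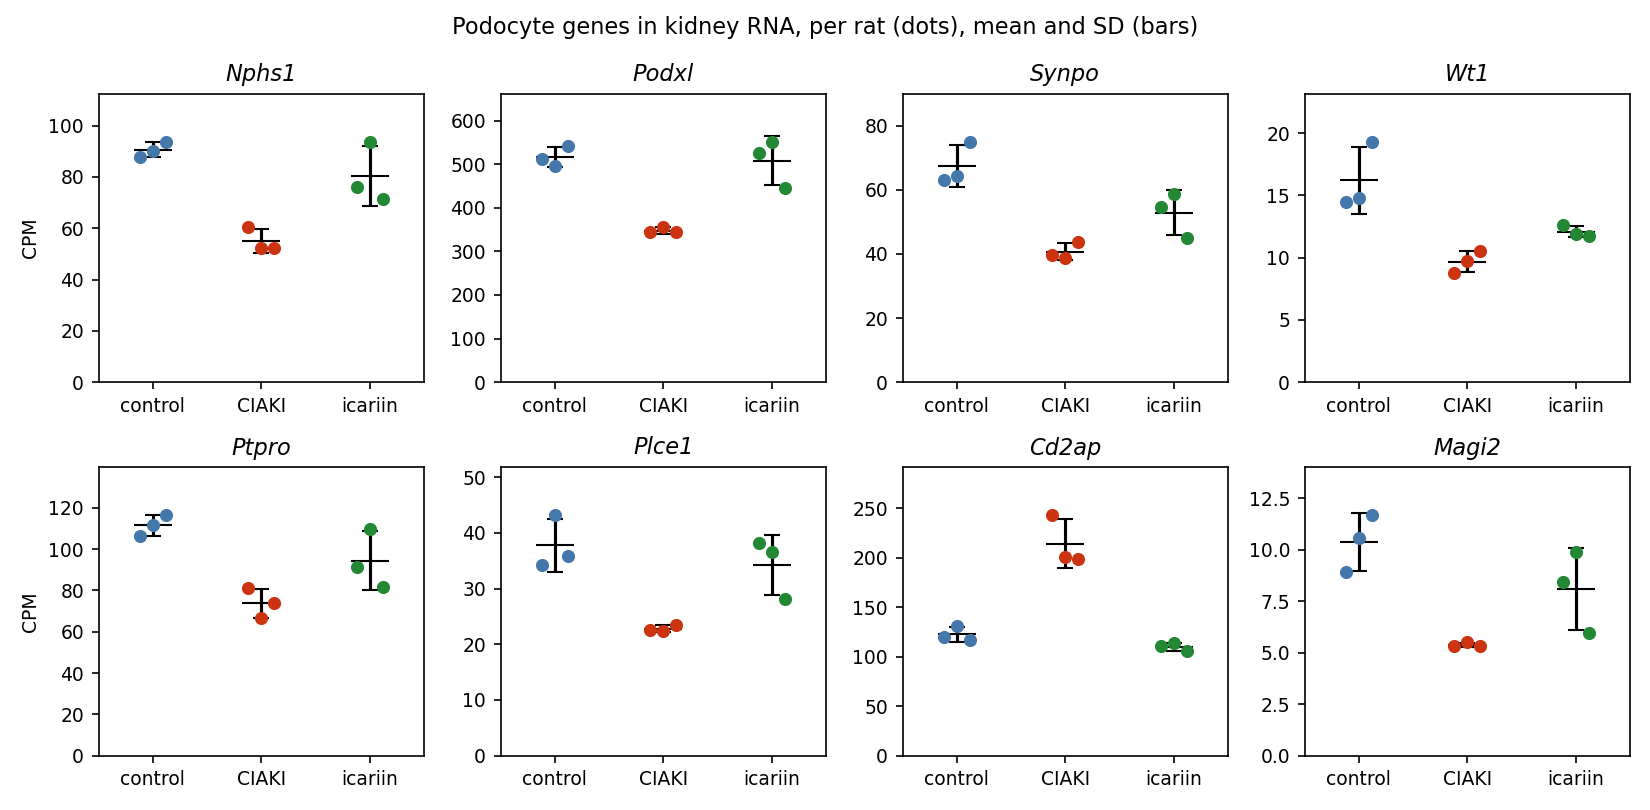
CPM of each of the 8 podocyte genes (vertical axes, each from 0 and on its own scale) in the 9 libraries, as points by group with bars for the mean and SD. In 7 genes the CIAKI points lie below all control points, and in Cd2ap they lie above.

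Nephrin, Nphs1 (ENSRNOG00000020873), is the adhesion protein of the slit. It stood at 87.9, 90.3 and 93.8 CPM in control kidneys, at 60.5, 52.2 and 52.4 CPM in CIAKI kidneys and at 76.1, 93.6 and 71.3 CPM with icariin. The control values lay close together, the CIAKI values were all lower, and the icariin values reached from below the control range to its top. The group means were 90.6 ± 2.95, 55.1 ± 4.72 and 80.3 ± 11.8 CPM (SD, n = 3 each). The log2 fold change in CIAKI was -0.71 (SE 0.11, 95% interval -0.95 to -0.47, limma adjusted p = 0.00094).

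Magi2 (ENSRNOG00000013962) is a scaffold protein that binds nephrin. It was the lowest of the 8 in CPM, with 8.91, 10.6 and 11.7 CPM in control and 5.32, 5.51 and 5.31 CPM in CIAKI libraries. With icariin it stood at 8.43, 9.91 and 5.95 CPM, the widest spread of the 8 genes in that group (coefficient of variation 24.7%). All CIAKI libraries lay below all control libraries, with a log2 fold change of -0.83 (SE 0.18, limma adjusted p = 0.0054). Magi2 spans 12 other annotated genes in RefSeq, and whether reads were counted by strand is not known, so reads of genes that overlap cannot be told apart. The same holds for Podxl, Ptpro and Plce1, which overlap 2, 1 and 1 other annotated genes.

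Cd2ap (ENSRNOG00000011987), the adaptor between nephrin and actin, moved the other way. Its levels were 119.7, 130.9 and 117.1 CPM in control, 243.1, 200.5 and 199.1 CPM in CIAKI and 110.9, 113.4 and 105.9 CPM in icariin kidneys. Each CIAKI library was above every library of the other groups, with group means of 122.6 ± 7.31, 214.3 ± 25.0 and 110.1 ± 3.84 CPM (SD, n = 3 each). The log2 fold change was 0.80 (SE 0.09, 95% interval 0.60 to 0.99, limma adjusted p = 0.00024), the smallest p-value of the 8 genes.

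Podxl (ENSRNOG00000012495) encodes podocalyxin, the negatively charged sialomucin of the apical foot process surface. Its libraries held 513, 495 and 541 CPM in control, 344, 356 and 344 CPM in CIAKI and 526, 552 and 445 CPM with icariin. The CIAKI values fell in a narrow band below the other groups, while with icariin replicate 1 lay within the control range, replicate 2 above it and replicate 3 below it. Its log2 fold change in CIAKI was -0.57 (SE 0.09, limma adjusted p = 0.0012), the smallest in size of the 8 genes.

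Ptpro (ENSRNOG00000006231), the receptor tyrosine phosphatase GLEPP1 of the apical membrane, stood at 106.4, 111.8 and 116.5 CPM in control and 81, 66.9 and 73.8 CPM in CIAKI kidneys. Icariin kidneys had 91.5, 109.9 and 81.8 CPM, of which only the second reached the control range. The log2 fold change in CIAKI was -0.59 (SE 0.11, limma adjusted p = 0.0031).

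Synpo (ENSRNOG00000019181), synaptopodin, bundles foot process actin. It was at 63.1, 64.3 and 75 CPM in control, at 39.7, 38.7 and 43.9 CPM in CIAKI and at 54.6, 58.8 and 45.1 CPM in icariin libraries. The 3 groups did not overlap: icariin lay between CIAKI and control, with its lowest library just above the highest CIAKI library. Synpo fell in CIAKI by 0.71 on the log2 scale (SE 0.11, limma adjusted p = 0.0012).

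Plce1 (ENSRNOG00000014276), phospholipase C epsilon, acts in podocyte signalling and differentiation. It had 34.2, 43.2 and 35.9 CPM in control, 22.5, 22.4 and 23.5 CPM in CIAKI and 38.2, 36.6 and 28.1 CPM in icariin kidneys. The CIAKI values hardly differed from one another and lay under all other libraries (log2 fold change -0.70, SE 0.13, limma adjusted p = 0.0027).

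Wt1 (ENSRNOG00000013074), the zinc finger transcription factor required for podocyte identity, stood at 14.5, 14.8 and 19.3 CPM in control kidneys. It was at 8.78, 9.76 and 10.5 CPM in CIAKI and 12.6, 11.9 and 11.8 CPM in icariin kidneys. As with Synpo, the groups did not overlap and icariin lay between the other groups. The log2 fold change in CIAKI was -0.68 (SE 0.13, limma adjusted p = 0.0032).

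The calls of all 8 genes against control held under each of the 20 alternative settings and left-out libraries tried. Of mesothelial cells, which make Wt1, 5 marker genes were in the table and 1, Krt19, was tested and did not pass. Their summed level was 3.83 to 18.1 CPM in control, 9.98 to 16.4 CPM in CIAKI and 4.17 to 11.8 CPM in icariin libraries. Krt19, which tubule and duct cells also make, stood at 3.03 to 11.9 CPM, Upk1b reached 6.50 CPM, Msln 1.87 CPM, Lrrn4 0.332 CPM and Upk3b 0.249 CPM, the last at 0 in 6 of 9 libraries. Control replicate 3 had the highest sum and the highest Upk1b and also the highest Wt1, and the part of these cells in the level of Wt1 was not tested.

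The second question was how the genes stood with icariin given before the same injury. Against CIAKI, 5 of the 8 genes were higher with icariin, Cd2ap was lower, and Wt1 and Magi2 did not pass the test. Without overlap, 7 genes were above the CIAKI libraries and Cd2ap was below them. Of all features, 19.2% were called higher and 20.2% lower, and 24.9% were higher and 25.9% lower without overlap. The median log2 fold change of the 8 genes was 0.42, against 0.017 over all features. This comparison shares the CIAKI libraries with the first, so opposite signs in these comparisons are not independent of each other.

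**Figure D2:**
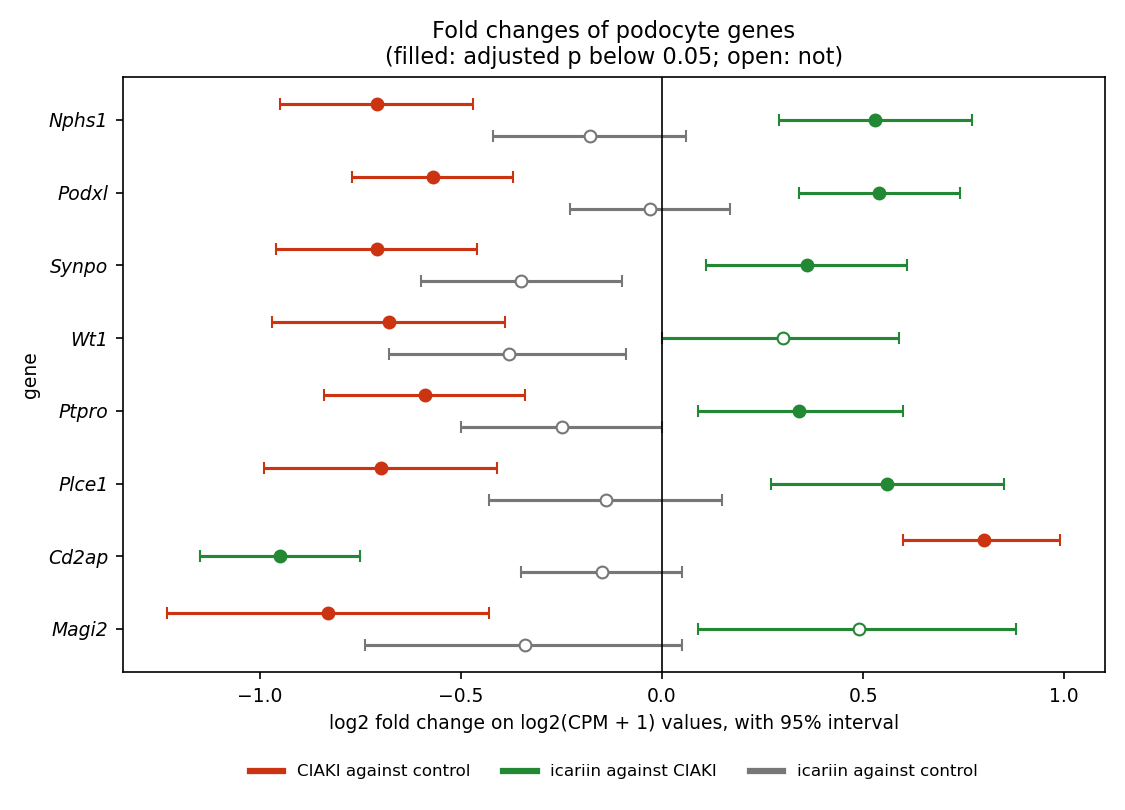
Log2 fold changes of the 8 genes on log2(CPM + 1) values (horizontal axis) with 95% intervals for the 3 comparisons, filled where the limma adjusted p is below 0.05 and open where not. Cd2ap lies opposite to the other genes in both comparisons with CIAKI, and no gene is filled against control with icariin.

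Plce1 was higher with icariin than in CIAKI by 0.56 on the log2 scale (SE 0.13, limma adjusted p = 0.0085), Podxl by 0.54 (SE 0.09, adjusted p = 0.0017) and Nphs1 by 0.53 (SE 0.11, adjusted p = 0.0042). Cd2ap fell by 0.95 (SE 0.09, adjusted p = 0.00013), to a level below all control libraries. These 4 calls were kept in all 20 alternatives. Synpo was higher by 0.36 (SE 0.11, limma adjusted p = 0.030) and Ptpro by 0.34 (SE 0.11, adjusted p = 0.036). These calls were lost in 6 and 10 of 20 alternatives. Both were lost with no filter on low values and with the replicate number as a block, and that of Ptpro with only the 2 groups compared. They were also lost when single libraries were left out. Synpo lost its call without CIAKI replicate 1 or 2 or icariin replicate 1 or 2 (adjusted p from 0.0747 to 0.105). Ptpro lost its call without any 1 of the 3 control libraries (0.0501 to 0.0523) and without CIAKI replicate 2 or 3 or icariin replicate 1 or 2 (0.0688 to 0.114).

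For Magi2 the difference of 0.49 (95% interval 0.09 to 0.88) missed the threshold (limma adjusted p = 0.054). It passed with edgeR on the recovered reads (adjusted p = 0.031), with DESeq2 (0.011), and with limma without icariin replicate 3 (0.0115, log2 fold change 0.67). For Wt1 the difference was 0.30 (95% interval 0 to 0.59, limma adjusted p = 0.10).

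The third comparison set icariin kidneys against control kidneys. None of the 8 genes passed the test with limma, edgeR or DESeq2, where limma called 0.628% of all features. An unadjusted limma p below 0.05 was found for 2 of the 8 genes and for 10.2% of all features. All 8 point estimates were below 0, with a median log2 fold change of -0.22 against -0.002 over all features. Synpo, Wt1 and Cd2ap lay below control without overlap, as did 10.2% of features, and no gene lay above it, as did 9.12%.

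Wt1 differed by -0.38 (95% interval -0.68 to -0.09, limma unadjusted p = 0.016, adjusted p = 0.31), with a mean of 74.7% of control. Synpo differed by -0.35 (95% interval -0.60 to -0.10, unadjusted p = 0.011, adjusted p = 0.27), with a mean of 78.3% of control. For Podxl the interval was -0.23 to 0.17, the narrowest of the set together with that of Cd2ap, -0.35 to 0.05. The intervals were -0.42 to 0.06 for Nphs1, -0.50 to 0 for Ptpro, -0.43 to 0.15 for Plce1 and -0.74 to 0.05 for Magi2. Missing the threshold does not show that these levels were back at control, and for Nphs1 the interval still allows a value 0.42 below control on the log2 scale.

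**Figure D3:**
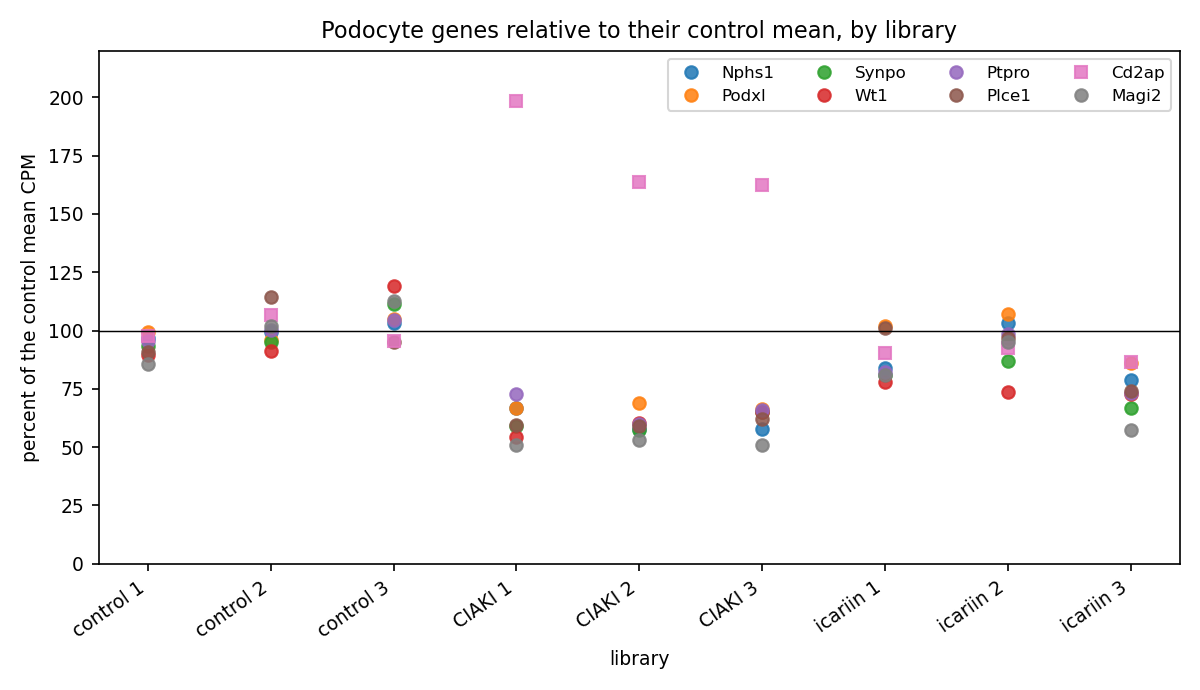
CPM of each gene as a percentage of its control mean (vertical axis, from 0) in each of the 9 libraries (horizontal axis), circles for 7 genes and squares for Cd2ap. In the CIAKI libraries the circles lie between 51.1% and 72.6%, and icariin replicate 3 lies lower than the other icariin libraries.

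The spread between libraries differed from group to group. The median of the 7 genes other than Cd2ap was 59.7%, 59.3% and 64.9% of control in the CIAKI libraries. It was 82.1%, 96.8% and 73.4% in the icariin libraries, a wider range than that of the CIAKI libraries. Within CIAKI the genes did not share an order of libraries: replicate 1 was the highest for Nphs1 and Ptpro and the lowest for Wt1. Icariin replicate 3 had the lowest value of its group for all 7 genes and for Cd2ap. In that library the slit diaphragm partners had a median deviation from control of -0.30 on the log2 scale, podocyte transcription factors -0.27 and mesangial genes -0.49. It was -0.26 for other podocyte markers, -0.25 for basement membrane, -0.23 for parietal and -0.15 for foot process actin and adhesion genes. Glomerular endothelium stood at -0.01, after 0.12 and 0.13 in icariin replicates 1 and 2. The proximal tubule stood at 0.13, 0.09 and 0.13 in the icariin libraries. Transcription factors were already at -0.22 in icariin replicate 1. The part of the composition or scaling of icariin replicate 3 in the values of the 8 genes was not tested.

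Relative to Nphs1 in the same library, the mean ratio of CPM of the other genes moved little beside that of Cd2ap. For Plce1 it was 0.417 in control, 0.416 in CIAKI and 0.429 with icariin, and for Synpo 0.744, 0.744 and 0.66. For Podxl it was 5.70, 6.35 and 6.35, and for Ptpro 1.23, 1.342 and 1.175. The Ptpro ratios of the CIAKI libraries (1.34, 1.28 and 1.41) stood above those of all other libraries. For Magi2 the mean ratio was 0.1145, 0.0982 and 0.1001, and for Wt1 0.1783, 0.1775 and 0.1527. The ratio of Cd2ap to Nphs1 was 1.36, 1.45 and 1.25 in control, 4.02, 3.84 and 3.80 in CIAKI and 1.46, 1.21 and 1.49 in icariin kidneys. The CIAKI ratios (3.88 ± 0.117, SD, n = 3) stood above all others (1.35 ± 0.101 in control and 1.38 ± 0.151 with icariin). With 3 against 3 libraries, the smallest p that a two-sided exact permutation test can give is 0.1, and such a ratio without gene length gives no relative abundance.

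Levels per length were used for 2 of the 8 genes, Cd2ap and Plce1, which the authors' deposited table of selected mRNAs holds for the CIAKI and icariin libraries. In the authors' deposited table, Cd2ap had 84.7, 72.2 and 72.1 FPKM in CIAKI and 40.3, 40.9 and 39.3 FPKM with icariin. For Plce1 the authors' deposited table gives 1.80, 1.99 and 2.14 FPKM in CIAKI and 3.30, 3.30 and 2.56 FPKM with icariin. On this per-length scale Cd2ap was the more abundant of the pair in every library, and neither gene's groups overlapped. The direction of each difference was that found in CPM. The counts deposited beside these FPKM values are the same reads as the CPM. The authors' rule for selecting these mRNAs is not known here, so this likeness in direction is no separate evidence.

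Other genes of the slit diaphragm complex were taken from a list of 15, of which 14 were tested. In CIAKI, 20.5% of all features were called lower and 20.8% higher, a background for this and each later list. Of the 14 partners, 4 were lower and 4 higher than control and 6 did not pass, with a median log2 fold change of 0.01. The lower genes were Kirrel1 (Neph1, nephrin's partner across the slit, -0.58), Kirrel3 (-0.95), the calcium channel Trpc6 (-0.87) and Fyn, the kinase that phosphorylates nephrin (-0.80). Kirrel3 was near the floor, at 1.15, 0.689 and 1.59 CPM in control and 0.12, 0 and 0.171 CPM in CIAKI libraries. It reached 1 CPM only in control replicates 1 and 3 and icariin replicate 1 (1.10 CPM). It was thus tested only through libraries outside CIAKI, which favoured its direction. The higher genes were Prkci and Pard3 of the Par polarity complex (1.10 and 0.57) and the actin adaptors Nck1 and Nck2 (0.32 and 0.35). Like Cd2ap, these last 4 are made by epithelia in general, and whether the lower genes came only from podocytes was not tested. The call of Kirrel3 was lost in 4 of the 16 alternatives that tested it (without CIAKI replicate 1 or 2, with quantile normalization and with edgeR). Nck1 lost its call without control replicate 1, and Nck2 without control replicate 1 or 3 or CIAKI replicate 1 or 2.

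Prkci stood at 91.2, 100 and 92.7 CPM in control, 245.7, 208 and 164.6 CPM in CIAKI and 86, 89.9 and 81.8 CPM in icariin kidneys. Its CIAKI libraries were all above the others, and against CIAKI it fell by 1.24 with icariin (limma adjusted p = 0.000198). With icariin against CIAKI, 19.2% of all features were called higher and 20.2% lower, a background for this and each later list. Of the 14 tested partners, 2 were higher and 6 lower with icariin than in CIAKI, with a median of -0.16. The lower ones were Prkci, Pard3, Nck1, Nck2, Tjp1 and Iqgap1, and the higher ones Trpc6 and Magi1. Prkci, Pard3, Nck1 and Nck2 kept this call in all 20 alternatives. The call was lost without CIAKI replicate 1 for Trpc6, Magi1, Tjp1 and Iqgap1, and without either icariin replicate 1 or 2 for Trpc6 and Magi1. It was lost without CIAKI replicate 2, control replicate 1 or icariin replicate 3 for Tjp1 and Iqgap1, without CIAKI replicate 3 for Trpc6, and without control replicate 2 or 3 for Iqgap1.

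**Figure D4:**
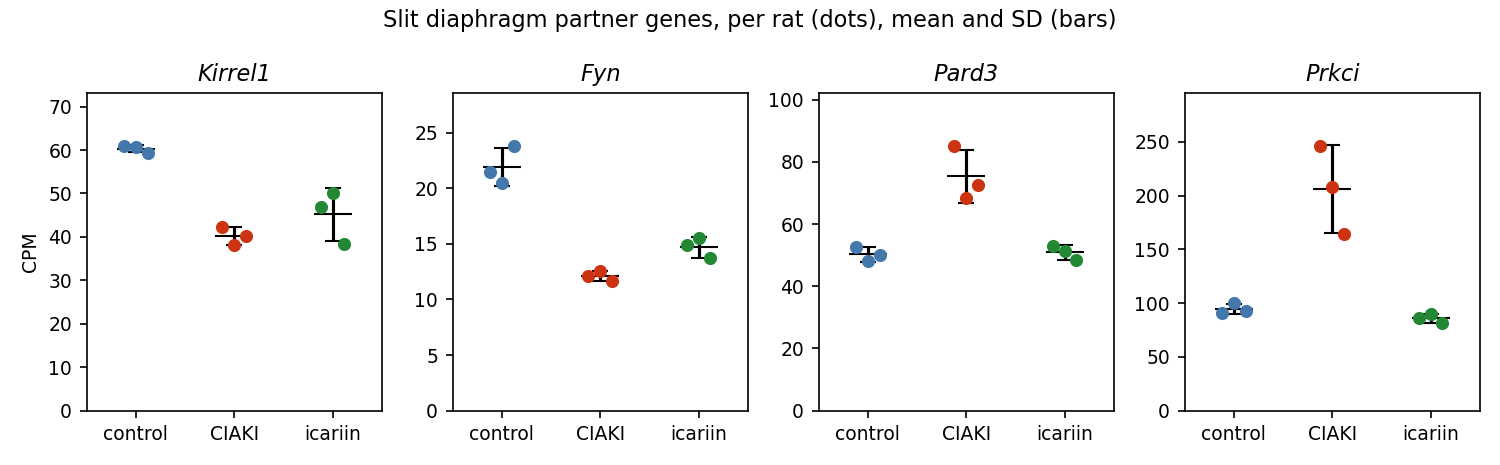
CPM (vertical axes, from 0) of slit diaphragm partners in the 9 libraries by group, with bars for the mean and SD. The CIAKI libraries lie above both other groups for Prkci and Pard3 and below both for Fyn.

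Fyn was the 1 partner of the 14 called lower with icariin than in control. It had 21.5, 20.5 and 23.8 CPM in control, 12.1, 12.6 and 11.7 CPM in CIAKI and 14.9, 15.5 and 13.7 CPM in icariin libraries. The groups did not overlap, with icariin between the other groups but nearer to CIAKI. Against control the log2 fold change was -0.54 (SE 0.10, limma adjusted p = 0.0497), a call lost in 12 of 20 alternatives, including each of the 9 left-out libraries (adjusted p up to 0.21). Against CIAKI it was 0.26 (adjusted p = 0.061).

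The transcription factors that set podocyte identity were mostly lower in CIAKI. Of 9 podocyte transcription factors, 5 were lower, 2 higher and 2 did not pass, with a median log2 fold change of -0.61. Lower were Dach1 (-1.15), Foxd1 (-1.09), Tcf21 (-1.07), Foxc2 (-0.86) and Lmx1b (-0.61). Tead1 (0.89) and Yap1 (0.39), partners in the Hippo pathway that most epithelia express, were higher. Whether the lower factors came only from podocytes was not tested. With icariin against CIAKI, Dach1 and Foxc2 were higher, Tead1 and Yap1 lower, and 5 did not pass. The call of Foxc2 was lost in 13 of 20 alternatives, among them every left-out library but control replicate 3.

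Of 17 tested other podocyte markers, 7 were lower, 1 was higher and 9 did not pass in CIAKI (median -0.32). Rab3b, among the lower ones, reached 1 CPM only in the control libraries (1.535, 1.335 and 1.572 CPM). It was thus tested only because control was high, which favoured its direction. Gas1, also among the lower ones, reached 1 CPM in no CIAKI library (0.962, 0.728 and 0.218 CPM), so its direction was favoured too. The call of Gas1 was lost in 4 of the 19 alternatives that tested it. Whether the markers of this list came only from podocytes was not tested. Nes, the intermediate filament nestin (-1.10), Npnt, the basement membrane ligand nephronectin (-1.06), and Dpysl2 (-0.81) were lower, and the small heat shock protein Cryab was higher (1.34). Against CIAKI, 5 were higher with icariin, 2 lower and 10 did not pass (median 0.19). The call of Sulf1, 1 of the higher ones, was lost in 12 of 20 alternatives. Tdrd5 was lower still with icariin: it had means of 24.5 CPM in control, 15.4 CPM in CIAKI and 9.26 CPM with icariin, and was called lower than control (-1.30, limma adjusted p = 0.0119). That call was lost without control replicate 2 or 3 or icariin replicate 2 or 3.

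Of 17 tested foot process actin and adhesion genes, 5 were higher, 4 lower and 8 did not pass in CIAKI (median 0.11). Of all features, 20.8% were called higher and 20.5% lower. The calls of Myh9, Arhgdia and Clic5 were lost in 9, 5 and 4 of 20 alternatives. Arhgap24, a regulator of podocyte actin, was lower (-1.08), and Cd151 (0.69), Itgb1 (0.49) and Vcl (0.44), widely expressed adhesion genes, were higher. Arhgap24 stood at a mean of 315.4 CPM in control, and which cells made it was not tested. With icariin against CIAKI, 5 of the 17 were higher and 5 lower (median -0.13). The calls of Anln and Arhgdia were lost in 11 of 19 and 10 of 20 alternatives. Of 9 tested glomerular basement membrane genes, Col4a4 (-1.01), Col4a3 (-0.74) and Agrn (-0.46) were lower in CIAKI and Lama5 (0.44) was higher, and 5 did not pass. Col4a4 stood at a mean of 1417 CPM in control, against 325.1 CPM for Col4a3. Which cells made the genes of this list was not tested. The call of Lama5 was lost in 11 of 20 alternatives, among them without any 1 control library, CIAKI replicate 1 or 2 or icariin replicate 1 or 2. With icariin against CIAKI, 3 of the 9 were higher and 2 lower. Of these calls, those of Col4a4, Lama5 and Lamc1 were lost in 11, 12 and 3 of 20 alternatives.

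**Figure D5:**
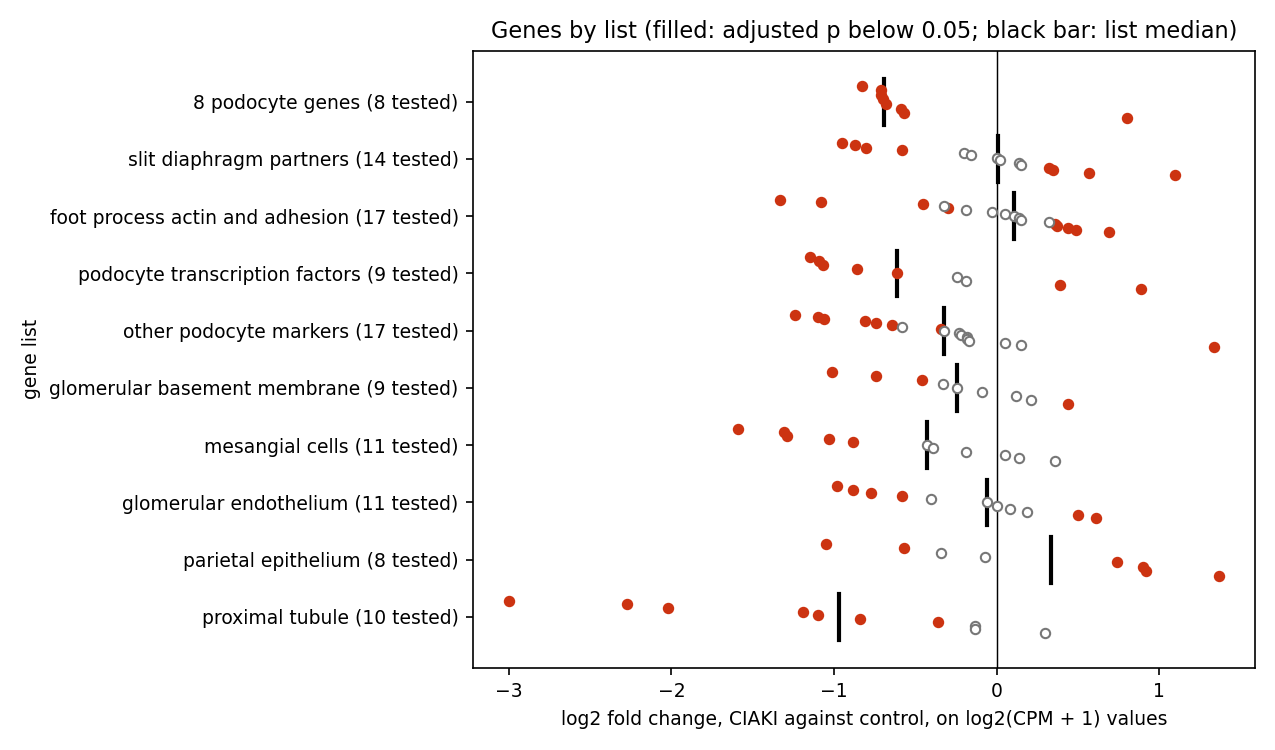
Log2 fold changes of the single genes (points) of each list and their median (bar) in CIAKI against control, on log2(CPM + 1) values, filled where the limma adjusted p is below 0.05. Proximal tubule genes lie lowest in CIAKI, podocyte transcription factors lie mostly below 0, and slit diaphragm partners lie on both sides of 0.

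Genes listed for other cell types of the kidney also changed in the same comparison. Of 11 mesangial genes, 5 were lower, none was higher and 6 did not pass in CIAKI (median -0.43), with Serpine2 at -1.59, Agtr1a at -1.31, Itga8 at -1.03 and Nt5e at -0.88. Pdgfrb (-0.19), Des (0.14) and Acta2 (-0.39) were among the 6 that did not pass. Whether the lower genes of this list came only from mesangial cells was not tested. Of 11 tested glomerular endothelial genes, 4 were lower, among them Ehd3 (-0.98), Kdr (-0.88) and Cdh5 (-0.58), and 2 were higher, Flt1 (0.61) and Plat (0.50). Pi16, also lower, lost its call in 4 of the 19 alternatives that tested it. Parietal epithelial genes were higher for 4 of 8, Cd24 (1.37), Cldn1 (0.92), Cd44 (0.90) and Pax8 (0.74), and lower for Ncam1 (-1.05) and Cav1 (-0.57). Most of these 8 are also made by tubule cells, and their summed level in CIAKI was 163% to 197% of control. Cd24 alone made up 585.5 to 752.9 of the 1010 to 1220 CPM of that sum.

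The proximal tubule list, from the most abundant epithelium of the cortex, summed to 22700 to 26500 CPM in control, 10100 to 13700 CPM in CIAKI and 22800 to 24600 CPM in icariin libraries. Of its 10 genes 7 were lower in CIAKI and 3 did not pass (median -0.97), and with icariin 8 were higher and 2 did not pass (median 0.90). The call of Slc13a3 in CIAKI was lost in 2 of 20 alternatives, and that of Aqp1 with icariin in 8 of 20. The summed level of this list moved with the groups, and its part in the CPM of the 8 podocyte genes was not tested. Scaling the libraries by TMM, upper quartile or quantiles left all 8 calls against control in place.

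The genes whose profile over the 9 libraries was closest to that of Nphs1 were taken as the 5 with the smallest mean absolute difference of centred log2(CPM + 1). They were Calcrl (0.055), Hpcal1 (0.059), Arhgef7 (0.063), Rab2b (0.065) and Hist1h2ac (0.067). Calcrl, a receptor for adrenomedullin, had means of 39.1 CPM in control, 23 CPM in CIAKI and 35.5 CPM with icariin. Ptpro followed next, ranking 6 of 13440 genes at 0.068. Podxl ranked 79, Synpo 92, Magi2 159, Plce1 297 and Wt1 734, all with differences of at most 0.155. Cd2ap ranked 12590, at 0.664. Many genes of other cells share the order of the groups, so a close profile is a description of these 9 libraries.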

How the data were processed

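RNA of 9 rat kidneys was taken with Trizol and made into TruSeq libraries, per the labels. The authors deposited a gene table in CPM, and tables of selected mRNAs with both read counts and FPKM values (per the file headers). The submitters' processing notes name Bowtie 0.12.2 and mm8, a mouse build, while the identifiers are rat Ensembl genes. The reference is not settled, and the sources used here give no counter, annotation, filter or strand setting. Whole reads recovered from the CPM steps (100% of values within 0.1 of a whole number) equalled 23850 of 23850 deposited counts. By these steps 1 CPM equals 73, 69.6 and 75.7 reads (control), 83.2, 67.3 and 64.4 reads (CIAKI) and 65.3, 70.6 and 90.4 reads (icariin).

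The test was limma 3.58.1 in R 4.3.3 with an intensity trend on log2(CPM + 1), with group as the factor and all 9 libraries, on the 16731 features that reached 1 CPM in 3 or more libraries. Tests were two-sided. It was tested on simulated data. The edgeR 4.0.16 quasi-likelihood test and DESeq2 1.42.0 on the recovered reads were alternatives, with other pseudocounts, filters and scalings and each library left out. The edgeR test called 7028, 6745 and 76 features in CIAKI against control, icariin against CIAKI and icariin against control, where limma called 6903, 6592 and 105.

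Named were all 8 genes, up to 4 genes per list with the smallest p in CIAKI against control, and the 5 genes closest to Nphs1. Other genes were named with their values in view. Genes and lists were chosen with earlier results of these data known. Some genes of the lists are not reported here, and the counts of the lists are without them.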

Additional observations from a re-analysis of the deposited data

How the results depend on the processing

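The calls of the 8 genes in CIAKI against control were kept in all 20 alternatives. Against CIAKI, between 4 and 7 of the 8 were called with icariin. Against control with icariin, no alternative called any of them, and Podxl, at -0.03, ranged from -0.09 to 0.06 when single libraries were left out, above 0 without icariin replicate 3. The cause was not tested. Over all features, icariin against control gave 105 calls, 52 with no filter on low values, 523 with DESeq2 and 30 to 130 when single libraries were left out, so this contrast rests on few calls that move with the setting. Replicate numbers are shared by the groups, but none of 9 pairs of same-numbered libraries correlated over 0.1 (-0.03 to 0.08), although 6 of 9 libraries correlated best with their own number, so they were not taken as pairs. With the replicate number as a block, 8, 4 and 0 of the 8 genes were called in the 3 comparisons, with 6678, 6314 and 73 features called in all, and Synpo (adjusted p = 0.0561) and Ptpro (0.0618) lost their calls against CIAKI. Magi2 with icariin against CIAKI, at an adjusted p of 0.054 as reported, was called in 7 of 20 alternatives.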
